A study of Mus musculus with 18 samples.

Results

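Gene expression in the wild-type mouse hindlimb was followed from the limb field, before an outgrown bud exists, to the paddle-shaped limb. The comparison rests on 6 of the 18 RNA sequencing libraries of the series, chosen by genotype and stage as labelled: 3 of the hindlimb at embryonic day E11.5 against 3 of the hindlimb field at E9.5. The other 12 are 6 libraries of hindlimbs at E12.5, wild type and Pitx1 knockout (Pitx1 KO), which are not used here, and 6 of Pitx1 KO embryos at E9.5 and E11.5, which enter 1 comparison. All embryos were C57BL/6, and no treatment is named. At E9.5 the dissected tissue held the field together with adjoining trunk, whereas at E11.5 it was hindlimb alone, so age and tissue content changed together and cannot be told apart. In bulk RNA, fewer cells of a type and less RNA per cell cannot be told apart either. The labels leave unsaid whether libraries of 1 group were made from different embryos or litters and whether embryos were pooled, so p-values measure only how far these libraries vary, a spread that may be technical.

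A limb starts as lateral plate mesoderm that thickens under the ectoderm at a set level of the trunk. PITX1 and TBX4 mark the hindlimb, FGF10 from the mesoderm induces the apical ectodermal ridge, and FGFs from the ridge keep the bud growing. Sonic hedgehog from the posterior margin and the 5′ Hox genes pattern the bud from front to back and from hip to toes, after which mesenchyme condenses into cartilage while muscle precursors arrive from the somites.

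Depth ranged from 20609576 to 39896200 fragments per library at E9.5 and from 38670280 to 40862646 at E11.5. The first principal component of the log2 values held 75.5% of the variance and separated the stages. The second held 9.08% and set E9.5 replicate 1 apart, the deepest library of its stage, in which the fewest genes, 15274, were detected. Levels below are RPKM, fragments per length of transcript and size of library, computed on 1 common scale for both stages so that libraries can be compared; differences are log2 fold changes, E11.5 minus E9.5, with their standard error (SE). A gene is said to have risen or fallen where edgeR's quasi-likelihood test gave a Benjamini-Hochberg adjusted p below 0.05 over the 14778 genes tested. Of these, 3727 rose (25.2%) and 3722 fell (25.2%), together 50.4%. At least 2-fold changes made up 1663 of the rises (11.3% of the genes tested) and 1235 of the falls (8.36%), and the median log2 fold change over all genes tested was 0.01. The 3 E11.5 libraries lay above all 3 E9.5 libraries for 31.6% of the genes and below them for 29.6%. With each library left out in turn, 5373 of the 7449 calls were made in all 6 fits.

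The genes that mark the hindlimb were expressed at both stages. Pitx1, the homeodomain factor of hindlimb identity, stood at 49.7, 58.6 and 60.3 RPKM at E9.5 and 135, 108 and 107 RPKM at E11.5. The E11.5 libraries were all higher, and the log2 fold change was 1.05 ± 0.11 (SE, adjusted p = 5.53e-05). Tbx4, the T-box factor of the hindlimb, rose in the same way, by 1.30 ± 0.16 (adjusted p = 0.000174), from 22.9, 31.9 and 20.4 to 67.5, 56.8 and 61.6 RPKM. Tbx5, its counterpart in the forelimb, stayed near or below 1 RPKM, at 0.559, 0.563 and 0.43002 and 0.479, 1.29 and 0.850; it was looked up after the values were seen. The labelled tissue therefore carried the hindlimb pair of markers at levels far above the forelimb one.

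Of 13 tested genes of hindlimb identity and initiation, 5 rose (38.5%) and 4 fell (30.8%), beside 25.2% in each direction over all genes. Fgf10, the mesodermal signal to the ridge, was among the risers, with 3.59, 4.25 and 2.39 RPKM at E9.5 and 6.99, 6.95 and 6.91 RPKM at E11.5. The 2 sets of libraries did not overlap, and the difference was 1.02 ± 0.19 on the log2 scale (adjusted p = 0.00142). Isl1, a LIM homeodomain factor needed to start hindlimb outgrowth, moved the other way, by -0.94 (adjusted p = 0.00359), from 15.2, 15.3 and 15.8 RPKM to 6.91, 6.17 and 11.2. Its E9.5 libraries were nearly equal, and all lay above those of E11.5. Hand2, which prepares the posterior margin, rose (1.28 ± 0.11), and Sall4, a zinc finger factor of early limb and stem cells, fell (-2.95 ± 0.34). Sall1, Etv4 and Etv5 were among those that did not pass.

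**Figure D1:**
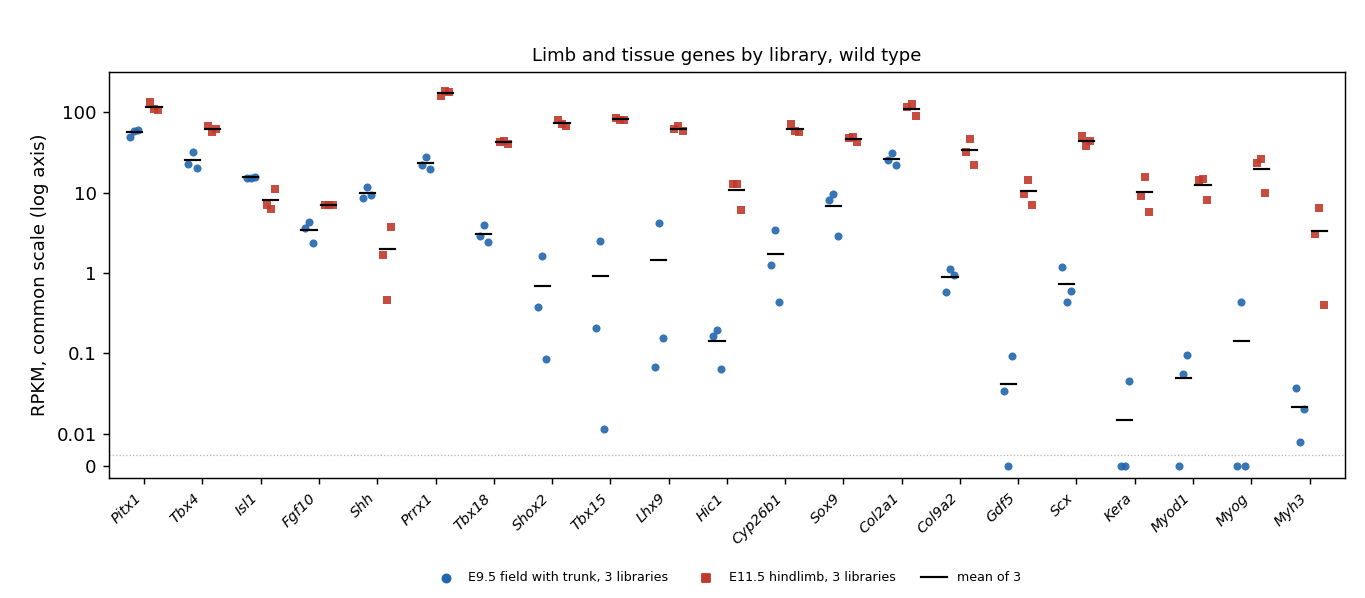
RPKM on the common scale (log axis, with libraries at 0 on the lowest line) for 21 genes of the limb, cartilage, tendon and muscle; blue circles are the 3 E9.5 libraries, red squares the 3 E11.5 libraries and black bars the mean of 3. Pitx1 and Tbx4 were expressed at both stages, whereas Shox2, Tbx15, Lhx9, Gdf5, Kera, Myod1 and Myog were under 5 RPKM in every E9.5 library and above 5 RPKM in every E11.5 library.

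The transcription factors of limb mesenchyme moved mostly upward. Of 32 tested, 16 rose, 3 fell and 13 did not pass, and their median log2 fold change was 0.79 against 0.01 over all genes. The largest rise was that of Shox2, a homeobox factor of the proximal limb skeleton, with 0.381, 1.62 and 0.0848 RPKM at E9.5 and 80.0, 70.2 and 67.0 RPKM at E11.5. Tbx15, a T-box factor of skeletal size, stood at 0.207, 2.50 and 0.0117 RPKM at E9.5 and 83.7, 79.8 and 79.9 at E11.5. Hic1, a repressor of mesenchymal progenitors and connective tissue, went from 0.165, 0.194 and 0.0640 to 12.9, 12.8 and 6.11 RPKM. All 3 were low at E9.5, most so in E9.5 replicate 3, and their E11.5 libraries lay far above, with log2 fold changes of 6.85 ± 0.67, 6.64 ± 1.26 and 6.21 ± 0.44 (adjusted p = 0.000794, 0.0130 and 1.75e-05).

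Prrx1, the paired-type factor that is often used as the label of limb mesenchyme, was already measured at E9.5. It stood at 22.1, 28.0 and 19.6 RPKM at E9.5 and 160.3, 185 and 178 RPKM at E11.5, a rise of 2.90 ± 0.14 (adjusted p = 5.39e-07). Tbx18 rose by 3.78 ± 0.17, Zfhx4 by 3.25 ± 0.16, Tbx2 by 2.35 ± 0.32 and Tbx3 by 0.57 ± 0.12. By contrast, Msx1, Twist1 and Gli3 overlapped between the stages (0.16, 0.24 and 0.06 on the log2 scale) and did not pass. Those that fell were Alx1 (-2.73 ± 0.68), Irx3 and Sall3, and without E9.5 replicate 1 none of the 3 was called, while 5 of the list fell without E11.5 replicate 3.

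The 3 E9.5 libraries were not alike in these genes. Replicate 2 held the highest level of 25 of the 32 factors and replicate 3 the lowest level of 23. Lhx9, a LIM homeodomain factor of the distal mesenchyme, stood at 0.0684, 4.14 and 0.154 RPKM at E9.5 and 62.1, 67.5 and 57.7 RPKM at E11.5. Its rise had an adjusted p of 0.0327 and passed in only 1 of the 6 fits with a library left out, that without E9.5 replicate 2 (log2 fold changes 4.89 to 9.24, adjusted p up to 0.0857). Its relative Lhx2 was at 2.03, 16.2 and 0.694 RPKM and Lmx1b, which gives the limb its dorsal character, at 3.10, 12.1 and 0.966 RPKM at E9.5. In both, replicate 2 again stood above the others, and both missed the threshold (adjusted p = 0.176 and 0.109) although each E11.5 library was higher than each E9.5 library. Without E9.5 replicate 2, 21 of the 32 factors rose.

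The same 3 libraries differed in the opposite order in markers of the tail bud and presomitic mesoderm, the growing end of the trunk. Of 18 tested members, replicate 3 was highest in 16 and replicate 2 lowest in 15. Their summed level was 203, 114.9 and 449 RPKM at E9.5 and 42.8, 38.9 and 33.6 RPKM at E11.5. What part this difference between libraries has in the limb factors was not tested.

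Many genes of trunk tissues fell. Of the 18 tail bud and presomitic genes 13 fell and 0 rose, with a median log2 fold change of -3.88; without E9.5 replicate 2, 20 of 22 tested fell, and without E9.5 replicate 3, 1 of 18 rose. Cdx2, a homeobox factor of the posterior axis and gut, was at 14.4, 6.98 and 41.1 RPKM at E9.5 and had 1 fragment over the E11.5 libraries, a ratio of E9.5 to E11.5 of 5232 (exact 95% interval 938 to 206710). Tbx6, which specifies presomitic mesoderm, was at 6.20, 0.273 and 21.1 RPKM at E9.5 and 0.426, 0.371 and 0.603 at E11.5. The stages overlapped, since E9.5 replicate 2 lay below the E11.5 libraries, and the gene did not pass (adjusted p = 0.0607); without that library, and with DESeq2, it did.

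Most progenitor genes of the neural tube fell. Of 24 tested 17 fell and 1, Prom1, rose, with a median of -5.70; without E9.5 replicate 3, 2 of 25 rose. The summed level of the list was 204, 237 and 149 RPKM at E9.5 and 84.9, 89.4 and 83.1 at E11.5. Prom1 (0.65 ± 0.09) is also a gene of other progenitors and epithelia, and Zic2 (0.85 ± 0.30) and Lrrn1 (0.96 ± 0.43) were among the 6 that did not pass. Sox2, which maintains neural progenitors, went from 32.2, 29.5 and 23.6 RPKM to 0.469, 0.602 and 0.239 and so fell by 6.02 ± 0.28 (adjusted p = 1.33e-06). Pax6 and Olig2, which divide the neural tube into domains, had 0 fragments in the 3 E11.5 libraries and were at least 1145-fold and 748-fold lower, against a floor of 3 fragments over the group. Of 18 neuronal genes 9 fell and 1 rose, and without E9.5 replicate 2, 2 of 19 rose. The riser was Dcx, a microtubule protein of migrating neurons, from 0.0794, 0.125 and 0.0983 to 6.04, 6.69 and 6.45 RPKM (6.02 ± 0.18, adjusted p = 5.79e-08), while Tubb3, the neuronal tubulin, did not pass (0.67).

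Somite genes divided. Of 16 tested, 10 fell and 4 rose, with a median of -1.97. Uncx, a homeobox factor of the sclerotome, had 16.7, 17.7 and 9.89 RPKM at E9.5 and 0 fragments at E11.5, at least 1259-fold lower. Meox1 fell from 89.1, 71.2 and 79.9 to 9.40, 9.15 and 12.2 RPKM, and Tcf15, the somite factor also called paraxis, fell by 3.29 ± 0.33. Meox2, the close relative of Meox1 that also acts in limb muscle precursors, rose instead from 11.55, 13.3 and 5.28 to 55.2, 63.3 and 54.6 RPKM (2.52 ± 0.33, adjusted p = 0.00131). Pax9 and Tbx18 rose as well, and Tbx22 did too in 3 of the 6 fits with a library left out.

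The remaining trunk lists also held more falls than rises: 9 of 11 genes of notochord and floor plate fell and 1 rose, 12 of 20 of gut and yolk sac fell and 0 rose, 8 of 17 of intermediate mesoderm fell and 4 rose, and 9 of 17 of coelomic, splanchnic and heart mesoderm fell and 2 rose. In intermediate mesoderm these were 47.1% and 23.5%, beside 25.2% in each direction over all genes. Foxf1, a forkhead factor of gut mesoderm, stood at 18.3, 15.8 and 21.4 RPKM at E9.5 and 0.321, 0.126 and 0.768 RPKM at E11.5. Hand1, of lateral and extraembryonic mesoderm, fell from 40.1, 30.03 and 33.1 to 0.895, 0.407 and 1.28 RPKM. Among neural crest and Schwann cell genes 6 of 15 fell (40%) and 3 rose (20%), and the pan-crest factor Sox10 did not pass (-1.19). The summed levels did not separate the stages for every list. Those of intermediate mesoderm at E9.5 and E11.5 overlapped, and those of coelomic and heart mesoderm were 99.4 to 112 and 109 to 118 RPKM. Neuronal genes overlapped too, with sums of 49.3 to 66.3 RPKM at E9.5 and 54.3 to 57.9 RPKM at E11.5.

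**Figure D2:**
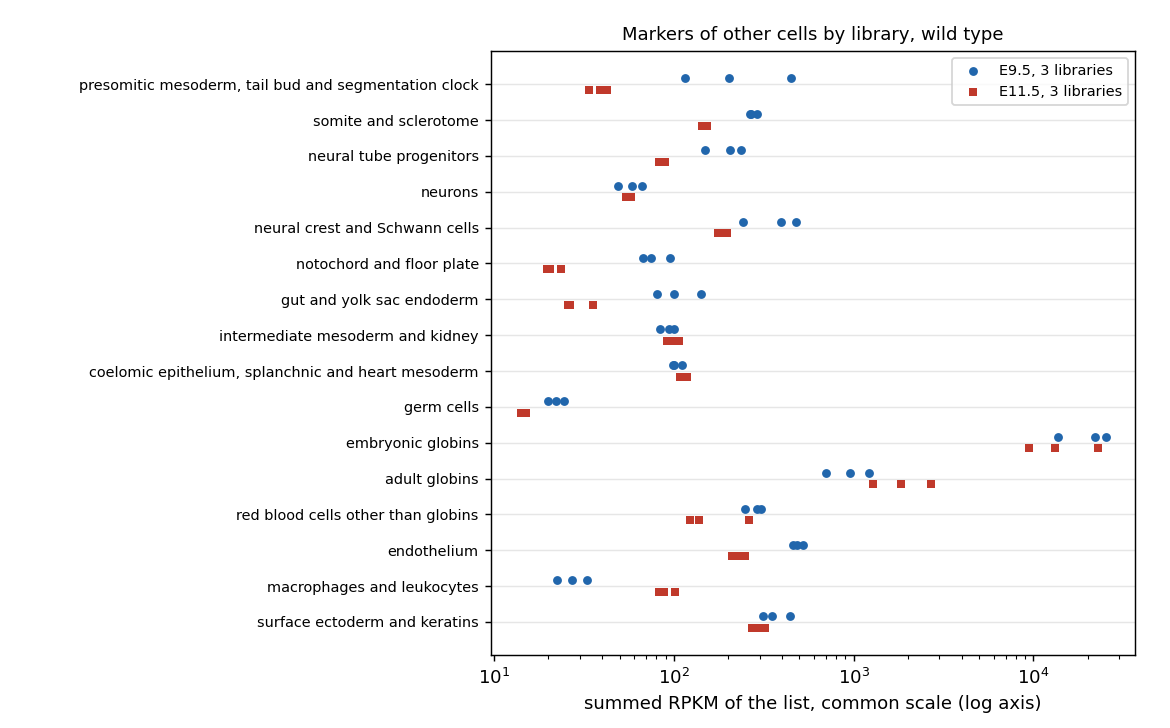
Summed RPKM of 16 marker lists (log axis) in the 3 E9.5 libraries (blue circles) and the 3 E11.5 libraries (red squares). Tail bud, somite, neural progenitor, notochord, gut and endothelial sums were lower in every E11.5 library and macrophage sums higher, and the E9.5 libraries spread most in the tail bud list, from 114.9 to 449 RPKM.

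The Hox clusters encode factors whose order along the chromosome matches their order of activity along the body axis. Paralog group 1 lies at the 3′ end and is active furthest forward. Group 13 lies at the 5′ end and is active at the tail and in the digits. Of the Hox genes tested, 10 rose; Hoxb13 was below the filter. Each gene of groups 10, 11, 12 and 13 that was tested rose, other than Hoxc10, which fell, and of groups 2 to 9 every gene fell except Hoxa3, Hoxa6 and Hoxa9, which did not pass. The trunk was dissected with the E9.5 field alone, and its part in the fall of the 3′ genes was not tested.

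At the 5′ end, Hoxa13 and Hoxd13, the paralogs of the digits, were measured in every E9.5 library, whose tissue includes trunk, and rose. Hoxd13 stood at 22.2, 18.9 and 13.74 RPKM at E9.5 and 170.4, 193 and 153 RPKM at E11.5, and Hoxa13 at 2.76, 3.28 and 4.83 RPKM at E9.5 and 33.9, 32.3 and 27.8 RPKM at E11.5. Neither gene's stages overlapped, and the rises were 3.23 ± 0.18 and 3.12 ± 0.21 (adjusted p = 3.66e-06 and 3.36e-06). Hoxd12 rose more, from 4.58, 4.13 and 0.623 to 68.2, 70.6 and 55.5 RPKM (4.36 ± 0.70), with E9.5 replicate 3 well below the other libraries of its stage. The rises of Hoxa10 (1.57 ± 0.08), Hoxa11 (0.99 ± 0.12) and Hoxd11 (1.07 ± 0.10), which shape thigh and shank, were smaller, and that of Hoxd10 was 0.35 ± 0.10, lost without E11.5 replicate 2 (adjusted p = 0.0618).

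At the 3′ end, Hoxb1 stood at 19.9, 13.9 and 34.9 RPKM at E9.5 and 0.0123, 0.0230 and 0.0250 RPKM at E11.5 and fell by 10.03 ± 0.55 (adjusted p = 6.25e-06). Its paralog Hoxd1 fell as well (-7.00 ± 0.60). The HoxB cluster, which lacks most 5′ genes, fell as a block: all 9 tested genes were lower, by at least 2.92 on the log2 scale, and their summed level went from 222, 186 and 242 RPKM to 12.1, 9.56 and 14.7. Hoxb9, a trunk gene, was the most abundant of them, at 81.6, 65.4 and 75.0 RPKM at E9.5 and 3.23, 2.68 and 4.33 at E11.5. Summed over the HoxD cluster, by contrast, the level was 138, 148 and 185 RPKM at E9.5 and 317, 340.3 and 289 at E11.5.

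Within HoxC, which marks the hindlimb against the forelimb through its 5′ genes, the turn lay further towards the 5′ end. Hoxc9 fell by 2.47 ± 0.23, Hoxc10 overlapped between the stages with 71.8, 63.3 and 82.6 RPKM at E9.5 and 54.4, 40.2 and 63.6 RPKM at E11.5, and Hoxc11 rose from 6.90, 5.67 and 5.02 to 14.8, 13.2 and 18.5 RPKM. The fall of Hoxc10 (log2 fold change -0.47 ± 0.16, adjusted p = 0.0384) was lost without any of 4 libraries, E9.5 replicates 1 and 3 and E11.5 replicates 1 and 2 (adjusted p up to 0.112). Hoxc12 and Hoxc13 rose from 0.151, 0 and 0 and from 0.162, 0.123 and 0.193 RPKM to 0.973, 1.72 and 0.623 and to 2.06, 1.61 and 1.45 RPKM. Hottip, a long RNA made next to Hoxa13 and read in the other direction, rose from 0.0804, 0.153 and 0.0492 to 13.6, 10.96 and 9.99 RPKM. Whether the fragments were counted by strand is not given in the sources used here, so Hottip and its neighbour may share reads, as may other overlapping transcripts of the clusters.

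**Figure D3:**
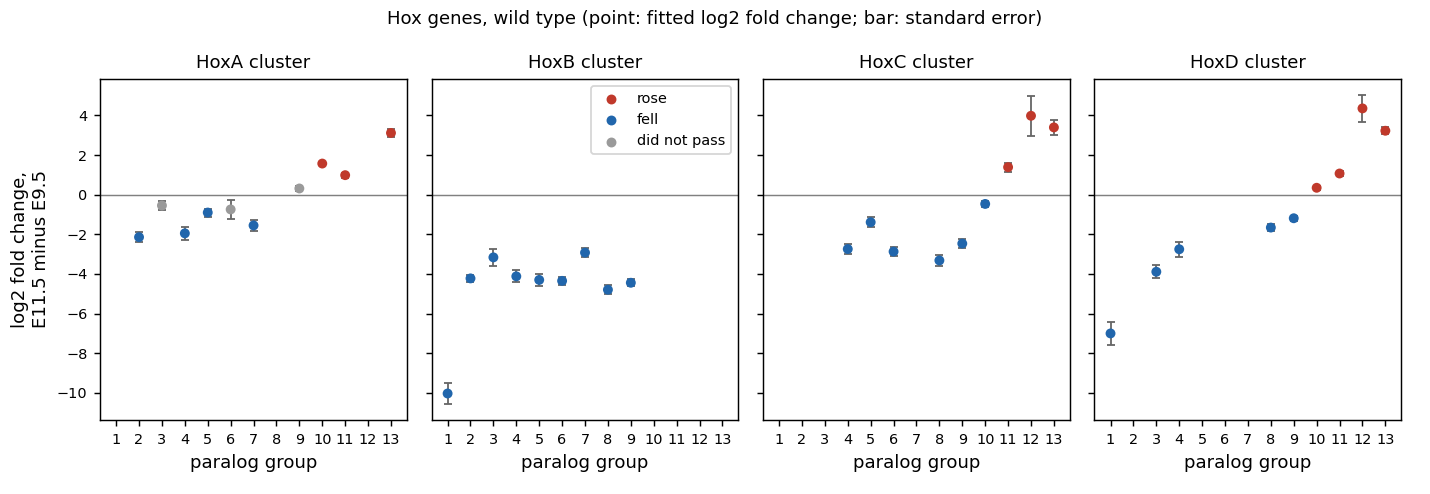
Log2 fold change (E11.5 minus E9.5) of tested Hox genes by paralog group, 1 panel per cluster; points are fitted values, bars their standard errors, red for a rise, blue for a fall and grey for genes that did not pass. The genes that rose began at group 10 in HoxA and HoxD and at group 11 in HoxC, and all 9 HoxB genes lay between -10.03 and -2.92.

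Shh, which patterns the posterior limb but is also made by notochord and floor plate, was lower in the limb, with 8.45, 11.7 and 9.37 RPKM at E9.5 and 1.68, 0.463 and 3.76 RPKM at E11.5. The E11.5 libraries differed widely, replicate 2 being the lowest, and the fall (log2 fold change -2.33 ± 0.72, adjusted p = 0.0422) passed in only 2 of the 6 fits with a library left out, those without E11.5 replicate 2 or 3 (adjusted p up to 0.120). Ptch1, the receptor and target of the pathway, fell by 0.89 ± 0.12 (adjusted p = 0.000224), whereas Gli1, another target, was at 16.3, 20.3 and 17.8 and 20.1, 16.99 and 18.2 RPKM and did not pass. The coreceptors Boc (1.44 ± 0.10) and Cdon (1.14 ± 0.15) rose, as did Grem1, the BMP antagonist that links hedgehog to the ridge (0.99 ± 0.25). In all, 5 of 17 tested genes of the pathway rose and 5 fell, 29.4% each, which is near the 25.2% of all genes; without E11.5 replicate 1, 3 fell.

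In the ridge list 8 of 19 tested genes rose (42.1%) and 3 fell (15.8%), beside 25.2% in each direction over all genes. Without E11.5 replicate 1 or 2, 5 rose. Fgf8, the main ridge FGF, was at 3.99, 9.68 and 5.87 RPKM at E9.5 and 11.95, 7.05 and 12.2 RPKM at E11.5, overlapping, and did not pass (adjusted p = 0.123). Its E9.5 level was highest in replicate 2, and without that library it passed. Sp8, a zinc finger factor upstream of Fgf8 that is also expressed in neural tissue, fell from 6.37, 5.62 and 7.75 to 2.58, 1.92 and 2.51 RPKM, while Dlx5 (1.38 ± 0.28) and Bmp2 (1.2 ± 0.26) rose. Among genes induced by FGF, Spry2 (1.14 ± 0.17) and Spry4 (1.11 ± 0.20), feedback inhibitors, rose, and Dusp6 did not pass (0.28).

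Retinoic acid is made in the trunk by ALDH1A2 and removed from the distal limb by CYP26B1. Cyp26b1 stood at 1.27, 3.43 and 0.436 RPKM at E9.5 and 70.4, 57.9 and 56.0 RPKM at E11.5, a rise of 5.20 ± 0.76 (adjusted p = 0.00461). Aldh1a2 went the other way, from 88.5, 97.8 and 51.1 to 23.5, 34.3 and 32.3 RPKM (-1.40 ± 0.27, adjusted p = 0.00542), and Rdh10, which makes its substrate, fell by 1.14 ± 0.17. No library of one stage overlapped the other in these 3 genes. The receptor Rarg rose (1.63 ± 0.15). Of the 16 tested genes of the pathway 7 rose and 7 fell, 43.8% each, beside 25.2% in each direction over all genes. Without E11.5 replicate 1, 5 rose and 6 fell, and without E9.5 replicate 1 or E11.5 replicate 2, 7 rose and 5 fell. E9.5 replicate 3 was the lowest of its stage in 10 of the 16.

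Of 30 tested Wnt genes 11 rose, 36.7%, and 7 fell, 23.3%, beside 25.2% in each direction over all genes; without E11.5 replicate 2, 7 of 31 rose. Wif1, a secreted inhibitor, rose from 0.530, 0.562 and 0.327 to 24.8, 28.2 and 22.0 RPKM (5.71 ± 0.21), and Wnt11 rose by 2.42 ± 0.21. The nuclear effectors Lef1 (-0.92 ± 0.18) and Tcf7 (-1.35 ± 0.13) fell, as did Sp5, a target in the tail bud (-3.28 ± 0.35). Axin2, the common feedback target, was at 20.9, 20.1 and 22.6 RPKM at E9.5 and 20.4, 21.1 and 19.6 at E11.5 and did not pass. In the BMP list 8 of 21 rose (38.1%) and 5 fell (23.8%), the latter near the 25.2% of all genes. The receptors Bmpr1b (2.60 ± 0.26) and Bmpr2 (1.25 ± 0.14) rose and Bmp4 did not pass (-0.11).

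Genes of embryonic timing fell. LIN28 proteins keep cells in an early state and block the maturation of let-7 microRNAs, which in turn repress Lin28, Trim71, Arid3 and Hmga2 messages through sites in their 3′ untranslated regions. Of 17 tested heterochronic and early embryonic genes 13 fell and 1 rose, with a median of -1.39. Lin28a stood at 114.7, 104 and 154 RPKM at E9.5 and 1.14, 0.742 and 1.92 RPKM at E11.5, Lin28b at 36.1, 42.6 and 36.1 RPKM at E9.5 and 14.3, 11.51 and 15.4 RPKM at E11.5. All E11.5 libraries were lower, far more so for Lin28a, with log2 fold changes of -6.63 ± 0.40 and -1.48 ± 0.12 (adjusted p = 8.06e-05 and 9.41e-06). Nr6a1, the germ cell nuclear factor that acts in trunk formation, fell from 16.95, 15.1 and 21.4 to 0.781, 0.839 and 0.726 RPKM (-4.51 ± 0.15). Trim71 (-2.40 ± 0.15), Arid3a (-1.39 ± 0.11), Arid3b (-1.52 ± 0.28) and Mycn (-1.27 ± 0.12) fell with no overlap between stages.

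The Igf2bp messages, also counted among let-7 targets, moved little. Igf2bp1 fell by 0.34 ± 0.10 and Igf2bp3 fell by 0.30 ± 0.09, and both calls were lost without E11.5 replicate 2. Igf2bp2 did not pass (-0.19). Hmga2, a chromatin protein of growth, was the member that rose, from 247, 241 and 280.4 to 294, 284 and 353 RPKM. Its rise of 0.27 ± 0.10 (adjusted p = 0.0480) held in 2 of the 6 fits with a library left out, those without E9.5 replicate 3 or E11.5 replicate 2.

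**Figure D4:**
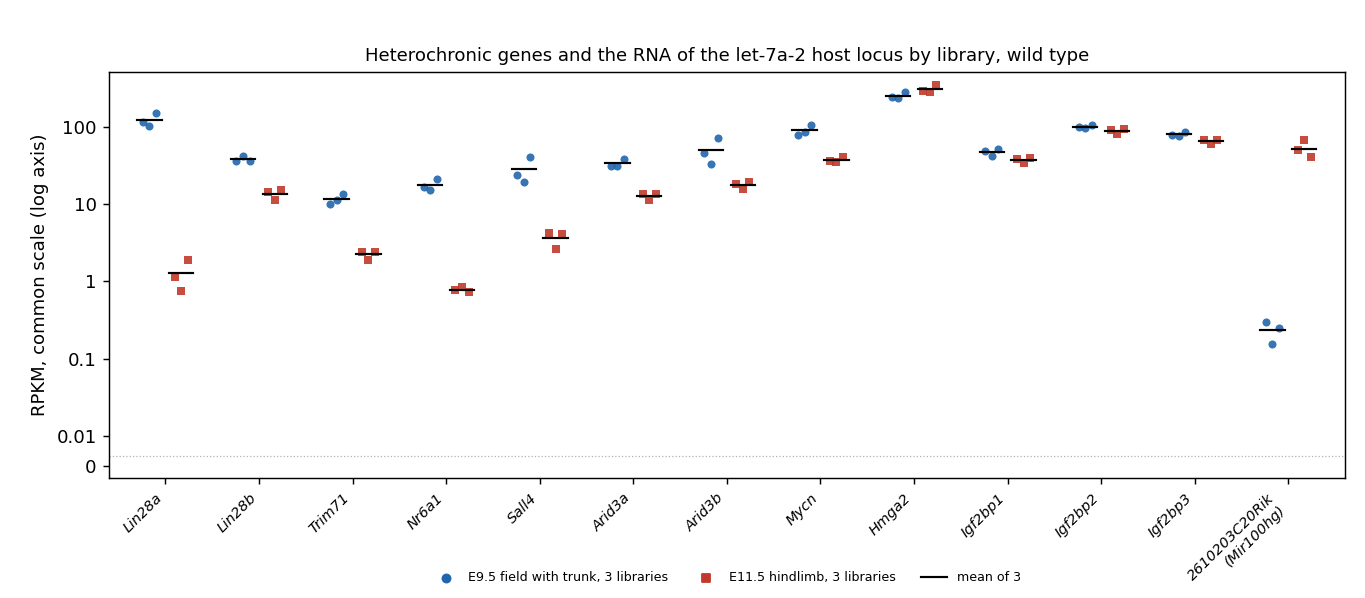
RPKM on the common scale (log axis) of 12 heterochronic genes and of 2610203C20Rik (Mir100hg) in the 3 E9.5 libraries (blue circles) and the 3 E11.5 libraries (red squares), with the mean of 3 as a black bar. Lin28a and Nr6a1 fell and 2610203C20Rik rose with no overlap, whereas the levels of the Igf2bp genes and Hmga2 lay close together at the 2 stages.

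Among the 15 largest rises of the whole comparison was 2610203C20Rik, listed as a synonym of Mir100hg by RefSeq (GRCm38.p6), the long RNA from whose locus let-7a-2, miR-100 and miR-125b-1 are cut. It had 29, 8 and 15 fragments at E9.5 and 5174, 7420 and 4128 at E11.5, or 0.293, 0.154 and 0.248 and 50.1, 67.3 and 40.6 RPKM, and rose by 7.75 ± 0.28 (adjusted p = 4.39e-07). The mature miRNAs themselves are too short for these libraries, and the rows of the 3 miRNA genes held 0 fragments, so their levels were not measured. Their sequences are shown, from RefSeq, with the seed (bases 2 to 8), the part that pairs with target messages, in capitals. Only matches of the let-7 seed are given below, and no pairing was measured. All 3 lie on the plus strand of GRCm38.p6, let-7a-5p at chr9:41536732-41536753, miR-100-5p at chr9:41531437-41531458 and miR-125b-5p at chr9:41581940-41581961, and no seed is shared between them.
let-7a-5p: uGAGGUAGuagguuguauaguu
miR-100-5p: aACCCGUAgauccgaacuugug
miR-125b-5p: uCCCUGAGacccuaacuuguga

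The reverse complement of the let-7 seed, CTACCTC on the message strand, was searched in the 3′ untranslated regions of GENCODE M21 transcripts (GRCm38), 1 transcript per gene. It was present in 11 of the 16 heterochronic genes with a usable region, 68.8%, and in 1260 of 13381 tested genes, 9.42%. The list holds known let-7 targets beside other early embryonic genes, so that its share is not independent evidence. Of its members without a match, Dnmt3b, Mycn, Pou5f1 and Utf1 fell and Hmga1 did not pass. The 8 matches of Nr6a1 were the most in the list, followed by 4 each in Lin28b, Trim71, Igf2bp1 and Hmga2, and 2 each in Lin28a and Arid3a. Hmga2, with 4 matches, rose and Nr6a1, with 8, fell. Over all tested genes those with a match had a median log2 fold change of -0.005 and those without one 0.00, and 24.7% rose and 27.4% fell with a match, against 25.4% and 26.0% without. Of the 149 genes with 2 or more matches 24.8% rose and 29.5% fell, with a median of -0.056. Of the 23 with 3 or more, 3 rose and 9 fell, with a median of -0.206; these 23 include members of the heterochronic list. Regions with a match were longer, with a median of 2201 bases against 906, and the medians were 3601 bases with 2 or more matches and 4466 with 3 or more. Windows of 30 bases around matches in 3 messages that fell and in Hmga2, which rose, are given for comparison, with the match in capitals.
Lin28a, first match: gcacagcctgttgaaCTACCTCatttttgc
Lin28a, last match: gagatcgccacaaacCTACCTCactgtgtt
Nr6a1, second match: tgttgacaaagacaaCTACCTCaatggaaa
Trim71, first match: aacattgcctaagtcCTACCTCagcttaaa
Hmga2, first match: gccgacattcaatttCTACCTCagcatcag

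Metabolic genes changed with stage. Of 20 tested genes of glycolysis and the response to low oxygen 13 fell and 1 rose, with a median of -1.09. Slc2a1, the main glucose transporter of the embryo, stood at 245, 199 and 277 RPKM at E9.5 and 43.8, 38.1 and 46.9 RPKM at E11.5. Ldha, which turns pyruvate into lactate, was at 1246, 1084 and 1301 RPKM at E9.5 and 374, 319 and 375 at E11.5. All E11.5 libraries were lower, and the log2 fold changes were -2.49 ± 0.13 and -1.77 ± 0.10 (adjusted p = 9.17e-07 and 1.26e-06). The lactate transporter Slc16a3 (-2.21 ± 0.22), Pgam1 (-1.75 ± 0.17), Pgk1 (-1.54 ± 0.18) and Aldoa (-1.52 ± 0.12) fell too. Hk1, the hexokinase of most adult tissues, rose (0.84 ± 0.09) while Hk2 fell (-1.33 ± 0.13). Of the genes that respond to low oxygen, Pdk1 (-0.76 ± 0.15) and Egln3 (-0.74 ± 0.22) fell, and Vegfa, Bnip3, Ankrd37 and Car9 did not pass. The call of Egln3 was lost without E9.5 replicate 3 or E11.5 replicate 2 (adjusted p up to 0.0644). Eno1 and other glycolytic genes have near-identical copies, and their values are uncertain.

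Proliferation genes shifted little. Of 30 tested, 19 fell, 3 rose and 8 did not pass, with a median of -0.36. DNA replication genes were on the falling side: Mcm7, of the replicative helicase, went from 142, 151 and 144 to 99.1, 89.2 and 93.9 RPKM (-0.64 ± 0.08), and Rrm2 (-0.80 ± 0.10), Pcna (-0.50 ± 0.13) and Ccne1 (-0.79 ± 0.12) fell. Mki67 (0.48 ± 0.09), Top2a (0.31 ± 0.08) and Cenpe were the risers. Cdkn1c, an inhibitor of the cell cycle, rose from 113, 118 and 109 to 337, 337 and 305 RPKM (1.52 ± 0.08, adjusted p = 9.53e-07).

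Cartilage genes rose as a group. Of 26 tested, 17 rose and 3 fell, with a median of 2.16. Sox9, the factor that commits cells to cartilage, stood at 8.04, 9.73 and 2.85 RPKM at E9.5 and 47.9, 49.3 and 42.003 RPKM at E11.5. E9.5 replicate 3 was the lowest, and the difference was 2.75 ± 0.47 (adjusted p = 0.00614). Col2a1, the collagen of cartilage that notochord also makes, rose from 25.7, 31.0 and 22.2 to 115.1, 124 and 90.7 RPKM (2.06 ± 0.15), and the collagen IX genes Col9a2 (5.27 ± 0.38) and Col9a3 (4.75 ± 0.29) rose more. Matrilin 1 (Matn1) had 0 fragments at E9.5 and was at least 50.1-fold higher at E11.5.

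Acan, the proteoglycan of mature matrix, was at 0, 0.0320 and 0.0712 RPKM at E9.5 and 0.440, 1.77 and 0.0719 at E11.5, and missed the threshold (adjusted p = 0.0593); without E11.5 replicate 3, and with DESeq2, it passed. Hapln1, which ties aggrecan to hyaluronan and is also made in the embryonic heart, fell from 24.2, 29.0 and 36.5 to 4.195, 5.64 and 8.54 RPKM (-2.29 ± 0.29). Gdf5, the signal of the joint interzone, was at 0.0341, 0 and 0.0929 RPKM at E9.5 and 9.73, 14.5 and 7.09 RPKM at E11.5, a rise of 7.88 ± 0.54 (adjusted p = 7.89e-06). The joint list as a whole had 8 of 14 genes rising and 2 falling. Of the bone genes, Runx2, the master factor, rose from 0, 0.0184 and 0.0553 to 1.82, 2.74 and 1.97 RPKM, and Sp7, its successor, did not pass. Alpl, a phosphatase of bone that is also strong in germ and early embryonic cells, fell (-3.18 ± 0.34).

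The 3 E11.5 libraries were unequal in differentiated tissue. Replicate 2 was the highest in 22 of the 26 cartilage genes and in 27 of 28 genes of the sarcomere, and replicate 3 was the lowest in 27 of the 28. Sarcomere genes summed to 153, 222 and 65.1 RPKM at E11.5 against 161, 153 and 162 at E9.5. Of the 28, 10 rose (35.7%) and 2 fell (7.14%), beside 25.2% in each direction over all genes. Without E11.5 replicate 3, 15 of 29 rose, and without E9.5 replicate 2, 7 of 29 rose. The median was 1.33, but 0.76 without E11.5 replicate 2 and 2.01 without E11.5 replicate 3.

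The muscle regulators rose. Of 22 tested myogenic genes 15 rose and 3 fell, with a median of 1.54. Myod1, which commits cells to muscle, stood at 0, 0.0555 and 0.0951 RPKM at E9.5 and 14.4, 14.7 and 8.05 RPKM at E11.5. Myog, which drives their differentiation, was at 0, 0.431 and 0 and 23.4, 26.1 and 9.97 RPKM. Both were near 0 at E9.5, and the rises were 8.14 ± 0.57 and 7.44 ± 1.06 (adjusted p = 9.41e-06 and 0.00254). Pax3, which marks migrating muscle precursors but also dorsal neural tube and somites, fell from 15.7, 13.9 and 12.1 to 2.32, 1.57 and 2.86 RPKM (-2.63 ± 0.21). Met, the receptor that migrating precursors need and that other cells express as well, rose (0.70 ± 0.14). Myf5, Pax7 and Lbx1, other markers of precursors, did not pass (adjusted p = 0.129, 0.767 and 0.0644).

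Among contractile genes, embryonic myosin Myh3 went from 0.0373, 0.00791 and 0.0203 to 3.08, 6.41 and 0.3996 RPKM (7.03 ± 1.42, adjusted p = 0.0114), and this call held in 3 of the 6 fits with a library left out, those without an E11.5 library. Atp2a1, the calcium pump of fast muscle (5.26 ± 0.42), Tnnt1 (3.62 ± 0.43) and Mylpf (3.15 ± 0.48) rose. The genes that fell, Des (-2.98 ± 0.19) and Acta2 (-2.22 ± 0.12), are also expressed in heart and smooth muscle. Chrng, the embryonic subunit of the acetylcholine receptor, had 1 fragment at E9.5 and 1.51, 1.71 and 0.545 RPKM at E11.5, a ratio of 193 (exact 95% interval 34.4 to 7656), and Chrna1, its ligand-binding partner, rose by 3.96 ± 0.73.

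The E-box CAGCTG, a sequence that MYOD1 and MYOG can bind and that reads the same on both strands, was searched from 250 bases before to 50 after each RefSeq start (GRCm38.p6). It was present in 18.3% of 27025 genes with such a promoter, in 13 of 28 sarcomere genes (46.4%) and in 2 of 12 matched myogenic genes (16.7%). The myogenic list holds 23 genes, of which only these 12 had such a promoter. Among members that rose, 4 of 9 sarcomere genes (44.4%) and 2 of 9 myogenic genes (22.2%) held the sequence, shares close to those of their whole lists. A match describes the sequence and no binding was measured. The 2 myogenic genes with a match were the receptor subunits Chrng and Chrna1, each with 2 copies, shown with the E-boxes in capitals, Chrng on the plus strand at chr1:87205561-87205860 and Chrna1 on the minus strand at chr2:73580289-73580588.
Chrng: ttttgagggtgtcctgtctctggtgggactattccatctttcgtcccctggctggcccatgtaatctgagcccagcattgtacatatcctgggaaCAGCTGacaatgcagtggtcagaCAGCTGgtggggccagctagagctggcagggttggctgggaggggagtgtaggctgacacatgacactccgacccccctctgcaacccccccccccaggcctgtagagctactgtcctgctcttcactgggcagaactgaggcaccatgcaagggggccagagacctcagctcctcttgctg
Chrna1: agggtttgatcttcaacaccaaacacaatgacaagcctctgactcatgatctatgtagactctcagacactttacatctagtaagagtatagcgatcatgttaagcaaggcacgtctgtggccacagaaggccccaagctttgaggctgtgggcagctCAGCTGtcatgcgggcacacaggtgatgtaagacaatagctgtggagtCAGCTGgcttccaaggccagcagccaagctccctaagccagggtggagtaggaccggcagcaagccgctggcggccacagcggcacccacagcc

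Tendon and connective tissue genes rose in 17 of 26 cases and fell in 3, with a median of 1.11. Scx, the factor of tendon progenitors, stood at 1.19, 0.442 and 0.589 RPKM at E9.5 and 50.6, 38.3 and 43.2 RPKM at E11.5, a rise of 5.78 ± 0.29 (adjusted p = 9.29e-07). Kera, a keratan sulfate proteoglycan, had 2 fragments at E9.5 and 9.17, 15.6 and 5.67 RPKM at E11.5, a ratio of 797 (exact 95% interval 220.5 to 6588). Col12a1 (5.45 ± 0.25), Col6a3 (4.45 ± 0.42) and Osr2, a zinc finger factor of joints and connective tissue (4.59 ± 0.19), rose. Postn (-2.36 ± 0.40), Col14a1 (-2.11 ± 0.48) and Thbs4 (-2.05 ± 0.34) fell. Of the 2 chains of collagen I, Col1a2 rose from 33.5, 39.9 and 32.1 to 186, 197 and 169 RPKM (2.38 ± 0.11), whereas Col1a1 was at 35.2, 47.7 and 43.5 and 45.5, 45.3 and 36.1 RPKM and did not pass, with a log2 fold change of 0.00, whose sign turned under other scalings and with a library left out.

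Keratins of the ectoderm moved in opposite directions. Of 27 tested ectodermal genes 14 rose (51.9%) and 7 fell (25.9%), beside 25.2% in each direction over all genes. The keratins of simple epithelia, Krt8 (50.1, 43.3 and 73.7 to 4.77, 5.18 and 6.64 RPKM), Krt18 (-2.62 ± 0.19) and Krt19 (-3.10 ± 0.21), fell. Those of stratified epithelium rose, with Krt5 at 6.83, 7.91 and 4.17 RPKM at E9.5 and 50.6, 56.2 and 41.7 RPKM at E11.5 and log2 fold changes of 2.97 ± 0.23 for Krt5, 3.48 ± 0.26 for Krt14, 3.76 ± 0.35 for Krt15 and 4.89 ± 0.34 for Krt17. Trp63, which directs stratification, rose by 0.88 ± 0.21, and Epcam, common to both, did not pass (-0.29). Krt8, Krt18 and Krt19 are also made by gut and coelomic epithelium of the trunk, whose part in the fall was not tested. Gabrp, a subunit of a GABA receptor, had 1 fragment at E9.5 and 6.96, 9.27 and 8.78 RPKM at E11.5, a ratio of 2281 (exact 95% interval 409 to 90128).

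Vessels and macrophages moved in opposite directions. Of 25 endothelial genes 22 fell and 1, Robo4, rose, with a median of -0.98, and their summed level went from 484, 522 and 462 RPKM to 232, 211 and 249.9. Kdr, the main VEGF receptor, fell from 14.4, 21.2 and 18.9 to 8.26, 9.02 and 9.78 RPKM (-1.01 ± 0.14), and Etv2, which starts the endothelial lineage, from 4.50, 6.40 and 3.72 to 0, 0.0510 and 0.0831 (-6.65 ± 0.66). Pecam1, common to all endothelium, fell by 0.29 ± 0.10 (adjusted p = 0.0423) and was called in 1 of the 6 fits with a library left out, that without E9.5 replicate 3. Of 24 macrophage and leukocyte genes 17 rose and 1, Csf2rb, fell, with a median of 2.38. Csf1r, the receptor on which macrophages depend, stood at 0.281, 0.249 and 0.128 RPKM at E9.5 and 1.76, 2.56 and 2.23 RPKM at E11.5, a rise of 3.29 ± 0.34 (adjusted p = 4.24e-05). C1qb, a complement gene of tissue macrophages, rose from 0.140, 0.160 and 0.0916 to 3.78, 5.004 and 6.25 RPKM, and Tyrobp (3.23 ± 0.55), Coro1a (2.39 ± 0.28) and Ptprc (2.37 ± 0.57), which other leukocytes express as well, rose too. Spi1, Itgam and Lyz2 were among the 6 genes that did not pass.

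**Figure D5:**
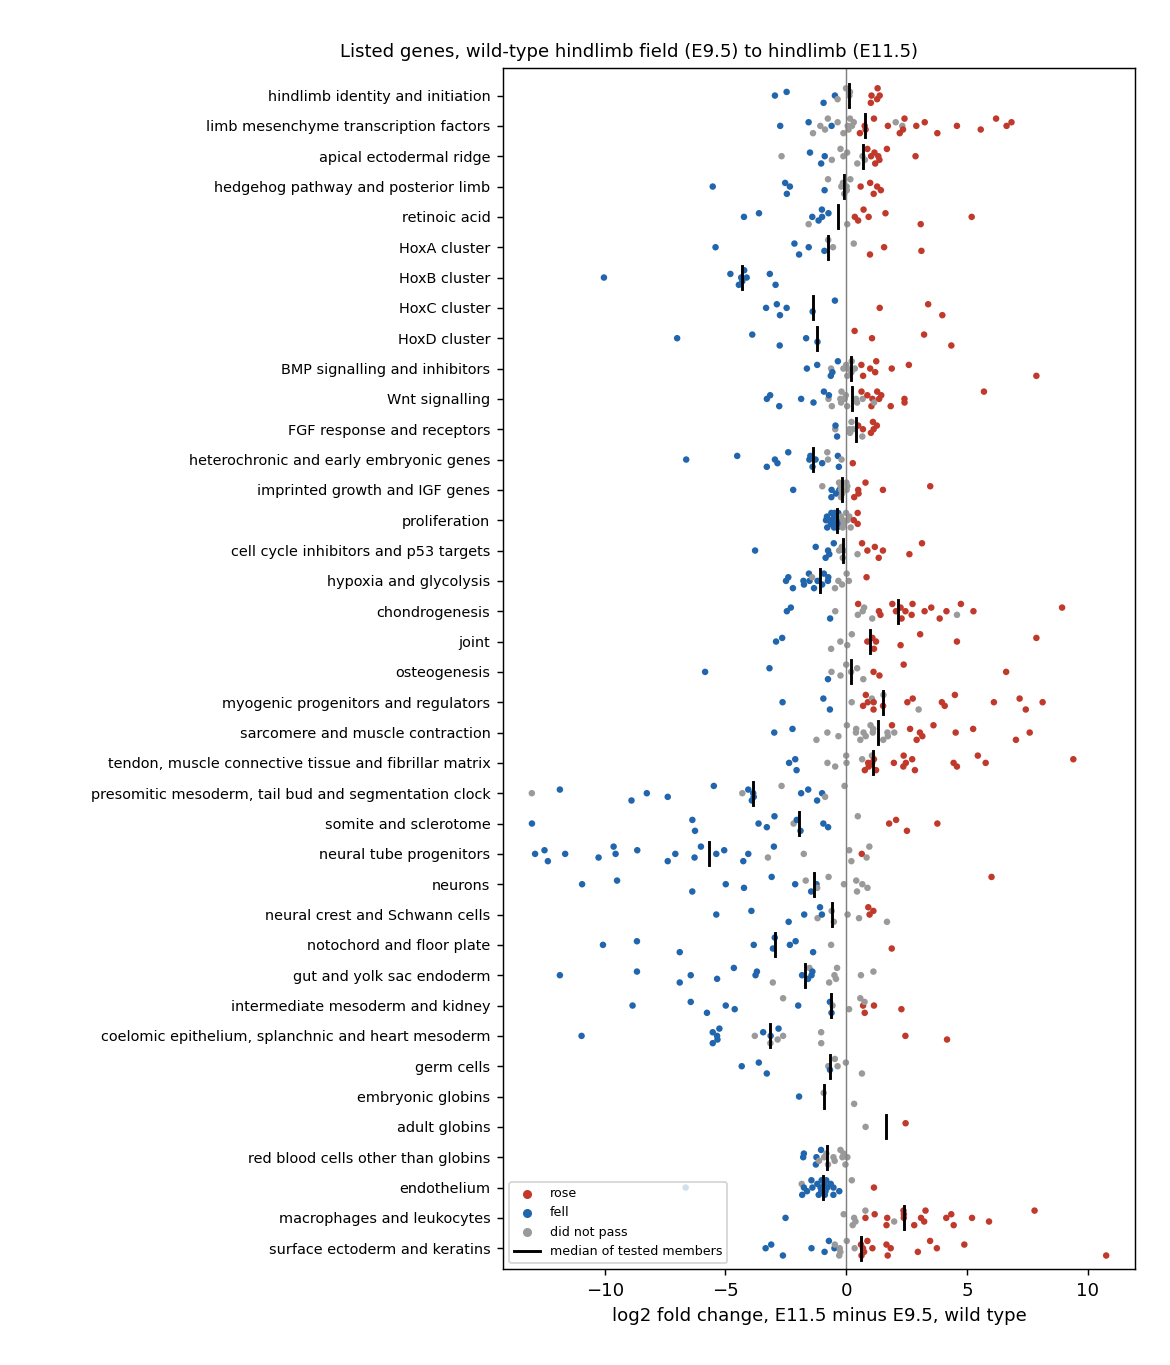
Log2 fold change (E11.5 minus E9.5) of every tested member of 39 gene lists; red points rose, blue points fell, grey points did not pass, and black bars are list medians. Cartilage, macrophage and myogenic lists have medians of 2.16, 2.38 and 1.54, and neural progenitor, HoxB and tail bud lists medians of -5.70, -4.30 and -3.88.

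The largest single changes were led by genes outside the limb and muscle lists. Agtr2, the type 2 receptor of angiotensin, had 1 fragment over the E9.5 libraries and 22.4, 23.8 and 18.4 RPKM at E11.5, a ratio of 5116 (exact 95% interval 918 to 202090). Calb2, a calcium-binding protein known from neurons, had 3 fragments and then 25.0, 23.7 and 21.5 RPKM, and Pcdh10, an adhesion protein, rose from 0.104, 0.244 and 0.108 to 21.2, 23.5 and 17.4 RPKM. The long noncoding RNAs 2700069I18Rik and E130114P18Rik reached 34.3, 37.9 and 31.1 and 4.9996, 6.83 and 7.94 RPKM. Among the 15 largest falls were Fam181a, Hes3, Sox1, Sox3, Neurog2 and Nkx6-1, genes of the neural tube, together with Nkx1-2 of the tail bud, at 0.0676, 0 and 0.0275 RPKM at E11.5, and Car4, at 0.0629, 0.118 and 0.0213.

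Pitx1 knockout embryos of the same stages were used to ask whether the change with stage depends on Pitx1. Pitx1 stood at 24.8, 25.7 and 18.7 RPKM in the 3 knockout libraries at E9.5 and at 22.7, 16.9 and 19.5 RPKM at E11.5, below every wild-type library but not absent; which part of the gene the allele removes is not given in the sources used here. The knockout libraries held 14317212 to 18496902 fragments at E9.5 and 44861031 to 60501215 at E11.5, so that depth and stage moved together in them. In the knockout 3839 of 15357 tested genes rose (25%) and 3911 fell (25.5%). These knockout calls came from a fit of all 12 libraries of both genotypes, in which the wild type had 8575 calls. The 7449 wild-type calls came from the wild-type libraries alone, over 14778 genes, so the overlap compares calls of unlike fits. Of the 7449 wild-type calls, 5716 (76.7%) were also made, in the same direction, in the knockout, where they were 73.8% of the calls. The difference between the 2 changes passed for 4 genes (0.026%) by edgeR, for 384 by DESeq2 and for 2340 at an unadjusted p below 0.05, and none of the 4 was called in every fit with a library left out.

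The 4 genes were Sdc2, Rprm, Mir703 and Eno1, each with an adjusted p of 0.0322. Sdc2, the cell surface proteoglycan syndecan 2, rose in wild-type libraries from 11.99, 11.35 and 10.3 RPKM to 20.99, 24.3 and 23.7, and in knockout libraries from 8.0, 9.17 and 8.67 to 38.4, 33.2 and 34.6, a difference of 1.0 ± 0.13 (log2, knockout minus wild type). Rprm, reprimo, a mediator of cell cycle arrest, did not pass in the wild type, at 31.8, 27.1 and 33.5 and then 25.1, 29.96 and 20.2 RPKM. In the knockout it went from 33.1, 36.4 and 29.8 to 11.6, 9.41 and 8.93 RPKM, a difference of -1.43 ± 0.21. In no other list than that of glycolysis, which holds Eno1, did any member pass. In the fit of both genotypes the median of the sarcomere list was 1.33 for wild-type and -0.80 for knockout libraries, and that of the cartilage list 2.26 and 0.61, with 0 members of either list passing the test of the difference.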

How the data were processed

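Poly(A) RNA of 3 libraries per group was sequenced with a stranded mRNA kit. TopHat2, Cuffdiff and FastQC, with mouse build mm9, are the tools named per the submitters' processing notes; for versions, annotation and strand setting, the sources used here give nothing. Per the file headers, the deposited tables hold the estimated counts of fragments per gene and library, made by the authors with Cuffdiff and not scaled between libraries. The same tables hold the authors' RPKM, which Cuffdiff scaled within each stage. Replicates are numbered from 0 in the tables and from 1 in the labels and were matched in that order. Of 23929 genes per table, 20 that Cuffdiff had not estimated in at least 1 library and 2 names turned into dates that stood for 2 genes each were left out. The deposited counts, 1.76% of which were not whole, were rounded.

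Wild-type counts went through edgeR 4.0.16 in R 4.3.3 (filterByExpr, TMM factors, robust quasi-likelihood test, no covariate), with Benjamini-Hochberg adjustment over all genes tested. The difference of the change between genotypes is the interaction term over 12 libraries. Levels on the common scale divide each gene's fragments by 1 factor per gene, set so that the mean matches the authors' RPKM, and by the TMM-scaled library size; they are written as RPKM. A fold against a stage with 0 fragments uses a floor of 3 fragments over the group; ratios with 1 to 3 fragments carry exact 95% intervals, which cover counting error only. On simulated counts for 14563 genes the wild-type test recovered 66% of 100 genes changed 2-fold and 31% of 100 changed 1.5-fold, with 8 false calls, and on 15139 genes the interaction recovered 62% and 17% with 5 false calls. Far fewer genes were changed in the simulation than the 50.4% called in the wild type. Recovery depends on that share, so these values do not give the sensitivity of the wild-type comparison. For the interaction, which called 4 genes, the share truly changed is not known, so its sensitivity is not given either. Alternatives were other scalings, filters, minimum folds, limma 3.58.1, DESeq2 1.42.0, a replicate block and leaving out each library.

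Genes were named by rule: 30 set genes, the Hox genes of the 4 clusters, up to 4 called members per list with the largest change and a mean of at least 1 RPKM in a stage, the 15 largest rises and the 15 largest falls with at least 5 RPKM and no overlap, and up to 10 genes per direction of the genotype difference. Other genes named stand as examples of their list and were chosen after their values were seen. The members and the 39 lists were chosen with earlier results of these data known. Some genes of these lists are not reported here.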

Additional observations from a re-analysis of the deposited data

Results flagged for a closer look

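For 4 genes the change from E9.5 to E11.5 differed between Pitx1 KO and wild type by edgeR's interaction test (adjusted p = 0.0322 each). The differences, knockout minus wild type on the log2 scale, were 1.57 for Mir703, 1.0 for Sdc2, -1.43 for Rprm and -7.85 for Eno1. Eno1 was listed at 0 in the 3 knockout libraries at E11.5, so that its fitted difference is no measure of size, and in the wild type it was below 5 RPKM in every library; it has near-identical copies between which reads can be divided. The row of Mir703, the gene of a microRNA precursor, held a mean of 2474 RPKM in the wild type and 5350.3 RPKM in the knockout at E11.5. Mature miRNAs are too short for these libraries. For Mir703, Sdc2 and Rprm the E11.5 libraries of the genotypes did not overlap. The genes were picked by a test on these same libraries, so this separation is no independent evidence. The share of all genes with such a separation was not counted.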

How the results depend on the processing

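Over 21 other settings the wild-type count of 7449 genes stayed between 5586 and 8575, other than with a minimum fold in the test, which left 2813 genes at 1.5-fold and 1321 at 2-fold. Leaving out each library gave 5933 to 7395. The replicate block gave 6710. Deviations of libraries with the same number correlated at 0.0026, 0.014 and -0.093, and those of different numbers at -0.086 to 0.086. With 3 libraries per stage, such values cannot tell whether libraries with the same number share a day or a batch. For the genotype difference the count of 4 became 384 with DESeq2, 0 without the robust step, 0 with the replicate block, and 0 to 9 with a library left out: 0 without knockout E9.5 replicate 1, knockout E11.5 replicate 3 or wild-type E11.5 replicate 1, 1 without wild-type E9.5 replicate 1, 2 without knockout E11.5 replicate 2, 8 without knockout E11.5 replicate 1 or wild-type E9.5 replicate 3, and 9 without wild-type E11.5 replicate 2. Of 4056 values of 195 named genes, 3904 kept direction and side of the threshold, 126 lost their call, 20 gained one and 6 turned. Those 6 were Col1a1 at -0.003 with DESeq2, -0.003 with RLE factors, and -0.114, -0.055 and -0.054 without E9.5 replicate 1, E11.5 replicate 1 or E11.5 replicate 2 (range with a library left out -0.114 to 0.104), and Hbb-y at -0.043 without E11.5 replicate 3 (range -0.043 to 0.558). The cause was not tested. With the block, Lhx9 (6.54), Shh (-2.66), Tbx15 (7.23), Dlx6, Cdkn2c, Hbb-bh1 and Pecam1 lost their calls. Library totals in place of TMM shifted all log2 values by 0.098.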

Other observations

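Growth and blood genes give further values. Igf1, a growth factor, rose from 1.27, 2.71 and 1.595 to 19.1, 17.9 and 24.7 RPKM (3.48 ± 0.30, adjusted p = 0.000133), while Igf2, its more abundant relative, rose by 0.50 ± 0.11. Dlk1, an imprinted inhibitor of differentiation, fell by 2.19 ± 0.26. Of 20 imprinted and IGF genes 6 rose (30%) and 5 fell (25%), which is near the 25.2% in each direction over all genes. Without E9.5 replicate 2, 3 fell, and without E11.5 replicate 1 or 2, 2 fell. Among 18 cell cycle inhibitors and p53 targets 7 rose (38.9%) and 6 fell (33.3%), beside 25.2% in each direction over all genes. Without E9.5 replicate 2, E11.5 replicate 1 or E11.5 replicate 2, 5 of the 18 rose and 5 fell. Pmaip1, a death-promoting protein, was up by 3.14 ± 0.38 and Cdkn2a down (-3.77 ± 0.98).

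Red cell RNA varied between libraries of one stage. The embryonic globins summed to 25222, 21888 and 13765 RPKM at E9.5 and to 13254, 9467 and 22923 at E11.5, with overlap. Hbb-bh1, an embryonic chain, fell in the full comparison (-1.95 ± 0.59, adjusted p = 0.0475) and in 1 of the 6 fits with a library left out, that without E11.5 replicate 3. Hbb-b1, an adult chain, rose from 95.4, 52.7 and 53.8 to 339.7, 326 and 457 RPKM (2.46 ± 0.27). The other tested globins did not pass. These were the embryonic Hbb-y (0.33, adjusted p = 0.513) and Hba-x (-0.93, adjusted p = 0.123) and the adult Hba-a1 (0.80, adjusted p = 0.123). E11.5 replicate 3 was the highest of its stage in 16 of 16 other red cell genes. Of these 5 fell (31.2%, beside 25.2% of all genes), 11 without that library and 3 without E9.5 replicate 1. Leaving the red cell genes out of the scaling shifted log2 values by -0.0005.

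Of 9 tested germ cell genes 4 fell (44.4%) and 0 rose, beside 25.2% in each direction over all genes. The 4 were Dppa3 (-3.62 ± 0.87), Nanog (-4.33 ± 1.05), Pou5f1 (-3.29 ± 0.74) and Kit (-0.67 ± 0.13). Ddx4, specific to germ cells, did not pass (-0.74).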
